A study of Mus musculus with 78 samples.

Results

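Microglia are the resident macrophages of the retina, and 10 genes that are widely used to recognise them were followed here through every cell population of a survey of sorted mouse retina cells. The genes are Csf1r, Cx3cr1, P2ry12, Tmem119, Aif1, Spi1, Tyrobp, Trem2, Ctss and Csf2rb2. They were chosen by name, as the probe sets of the array annotated to a single one of these symbols. Each gene had 1 probe set, so that 10 of the 19301 genes with a probe set of a single symbol were members. All 10 passed the filter on dim genes described below, Spi1 only through the microglia line.

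The survey used adult mice of 22 transgenic lines, in each of which a fluorescent protein marks certain retina cells. After 15 min of dissociation with papain, 200 fluorescent cells per sample were sorted through gates on fluorescence, on size and granularity, and on pulse width, and their RNA was hybridised to Affymetrix Mouse Gene 1.0 ST arrays. There were 78 arrays in 26 sets of 3 biological replicates, and the amacrine line Arc and the rod line b2 had 3 sets each. Whether the replicates of a set came from separate animals was not given, so p-values measure the spread between the samples of a set. All 26 sets share 1 estimate of this spread per gene, so the SE and p of a line do not follow its own arrays.

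The microglia line was Tg(Csf2rb2-EGFP)334Gsat, called the Csf2rb2 line here, in which a transgene with Csf2rb2 regulatory sequence drives green fluorescent protein. The 21 neuron lines comprised 4 ganglion cell lines, 4 bipolar lines, 3 photoreceptor lines, 1 horizontal cell line and 9 amacrine lines. Of these, 10 lines combined a Cre driver with a reporter: Grik4, Opn4, mGluR6, Kcng4, b2, d4, Gja10, Crh and ChAT were crossed with Rosa26-LSL-RFP, and PV with ThyStopY. The ganglion cell lines were Grik4 (C57BL/6-Tg(Grik4-Cre)G32-4Stuj), Drd4 (Tg(Drd4-EGFP)W18Gsat/Mmnc, with RFP given as its fluorescent protein), Opn4 (mOpn4-Cre1D4, melanopsin cells) and PV (driver 129SVCB6(PV-CRE#32)SA-09). The bipolar lines were mGluR6 (B6Cf1-Tg(mGlur6-Cre)BR, ON-bipolar cells), Kcng4 (a Kcng4-CreERT2 driver), Pcp2 (B6:FVB-Tg(Pcp2-EGFP)2Yuza, rod bipolar cells) and Lhx4 (Tg(Lhx4-EGFP)199Gsat). The photoreceptor lines were b2 (b2-Cre, rods), d4 (d4-Cre, cones) and Chrnb4 (Tg(Chrnb4-EGFP)1Gsat, cones), and the horizontal cell line was Gja10 (a Gja10-Cre driver). The amacrine lines were Crh (Tg(Crh-Cre)282Gsat/Mmnc), ChAT (129S6-Chat_tm1(cre)Lowl/J, starburst cells) and the EGFP lines Tg(Arc-EGFP)194Gsat/Mmcd, Tg(Igfbp2-EGFP)17Gsat, Tg(Rgs5-EGFP)24Gsat, Tg(Chrna3-EGFP)BZ135Gsat/Mmnc, Tg(Fbxo32-EGFP)138Gsat/Mmcd, Tg(Ier5-EGFP)267Gsat and Fam81a (Tg(6430514L14Rik-EGFP)95Gsat). All samples carried a mixed FVB/N-Swiss Webster and C57BL/6J background, and the labels state that mice from the MMRRC repository came from stock with a recessive photoreceptor degeneration mutation and were used as F2 after backcrossing. In Cre lines the reporter marks every cell in which Cre was ever active. Arrays were run in 3 batches, with the Csf2rb2 line and 10 of the neuron lines in batch 3.

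Microglia depend throughout life on CSF1R, the receptor tyrosine kinase for the ligands CSF1 and IL-34, and on PU.1, the transcription factor encoded by Spi1. They survey the retina through receptors for signals from neurons, among them the fractalkine receptor CX3CR1 and the ADP receptor P2RY12. TREM2, a receptor for lipids and lipoproteins, signals through the adaptor TYROBP (DAP12). AIF1 (IBA1) is an actin-binding protein, TMEM119 a membrane protein much used as a microglia marker, and cathepsin S (Ctss) a lysosomal protease. Csf2rb2 encodes the mouse beta subunit of the interleukin-3 receptor, a close relative of Csf2rb, the beta subunit shared by the GM-CSF, interleukin-3 and interleukin-5 receptors.

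Promoter sequences are given for the 2 members whose window held a PU.1-type motif, since Spi1 is itself a member. RefSeq promoter windows of 300 bases (250 before the annotated start to 50 from it; GRCm38.p6) were at hand for 6 members: P2ry12, Ctss, Cx3cr1, Csf2rb2, Aif1 and Trem2. The motif GAGGAAGT, searched on both strands, occurred in the windows of Ctss and Csf2rb2 and in 3.20% of all 32851 windows. The Ctss window is chr3:95526536-95526835 on the plus strand, with a match that begins 2 bases before the start and runs across it. The Csf2rb2 window is chr15:78305672-78305971 on the minus strand, with a match that begins 27 bases after the start. Capitals mark the match, which reads as the reverse complement of the motif in both.
Ctss: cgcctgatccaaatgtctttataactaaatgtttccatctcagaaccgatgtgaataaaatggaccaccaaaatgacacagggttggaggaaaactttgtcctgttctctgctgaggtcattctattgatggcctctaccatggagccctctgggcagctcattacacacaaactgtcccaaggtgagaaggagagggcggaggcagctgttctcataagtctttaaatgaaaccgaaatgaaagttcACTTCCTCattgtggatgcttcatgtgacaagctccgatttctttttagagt
Csf2rb2: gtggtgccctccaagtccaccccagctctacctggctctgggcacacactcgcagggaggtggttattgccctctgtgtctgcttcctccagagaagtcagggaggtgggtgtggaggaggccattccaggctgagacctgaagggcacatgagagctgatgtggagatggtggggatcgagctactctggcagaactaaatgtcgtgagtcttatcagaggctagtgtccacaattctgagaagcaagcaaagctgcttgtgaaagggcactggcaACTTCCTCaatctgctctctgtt
A match describes these letters and is not a test of binding. The line means varied most for Ctss and least for Csf2rb2 among the 10 members, with SDs of 1.58 and 0.19 on the log2 scale over the 21 neuron lines.

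Values are array intensities on a linear scale, from which log2 differences were computed after raising values below 3.99 to that floor. Up to this level, the lowest values of an array can rise in strict reverse order of the probe set identifiers. Such values differ from each other but carry no order of their own. A gene was tested if the geometric mean of at least 1 set exceeded 9.01, the median of all values, which left 15102 genes. It was called higher or lower at a Benjamini-Hochberg adjusted p below 0.05 over all of these (limma) and a log2 difference of at least 1. The arrays had been normalised to the same distribution, and the number of arrays limits the precision. Intensities of different probe sets are not on a common scale, so the level of one gene is not set against that of another. Sums over a gene list weigh its brightest probe sets most and serve only to set arrays side by side, and each log2 difference or share is taken within a gene. In sorted bulk samples, fewer cells of a type and less RNA per cell cannot be told apart.

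The sorted microglia carried the whole group of genes. All 10 were higher in the Csf2rb2 line than in the mean of the 21 neuron lines, where 8.14% of all genes tested were called higher. The direction of Spi1 was fixed in advance, since the filter let it pass through the Csf2rb2 line alone (its highest neuron set was at 7.80). The count that bears on the comparison is 9 of the other 9. The median log2 difference was 5.31 over these 9 genes and -0.06 over all genes tested. Against the 10 neuron lines of batch 3 alone, the same 9 were also higher (8.41% of all genes called higher), with a median of 5.31. For 9 of the 10, Spi1 among them, no array of the 75 from neuron lines reached the lowest of the 3 microglia arrays. The share of all genes that separate in this way was not computed, so this describes the members only.

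Of the receptors, Csf1r measured 608, 378 and 381 in the Csf2rb2 line, against 6.12 to 39.6 (median 7.50) over the 75 neuron arrays. Cx3cr1 measured 1661, 915 and 1601 in the Csf2rb2 line, against 0.699 to 286 (median 20.1) in the neuron arrays. The groups do not overlap for either gene, and the log2 differences were 5.70 (SE 0.19, adjusted p = 3e-33) for Csf1r and 5.93 (SE 0.41, adjusted p = 7.2e-19) for Cx3cr1. P2ry12 measured 23.8, 23.6 and 33.2 in the Csf2rb2 line, against 3.04 to 19.9 (median 4.53) in the neuron arrays, of which 20 were at or below the floor. Its log2 difference was 2.36 (SE 0.23, adjusted p = 2.9e-13), and its groups do not overlap either.

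The Trem2 and Tyrobp pair differed strongly as well. Tyrobp measured 1539.8, 1503 and 1429.5 in the Csf2rb2 line, against 5.15 to 181 (median 7.61) in the neuron arrays, a log2 difference of 7.18 (SE 0.31, adjusted p = 5e-28). Its 3 microglia arrays had an SD of 0.05 on the log2 scale, the smallest of the 10 genes. Trem2 measured 347, 472 and 398 in the Csf2rb2 line, against 2.94 to 45.7 (median 19.1) in the neuron arrays, a log2 difference of 4.52 (SE 0.23, adjusted p = 4.3e-25).

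Ctss, the protease, measured 2896, 2394 and 2655 in the Csf2rb2 line, against 2.68 to 951 (median 10.8) in the neuron arrays, a log2 difference of 7.10 (SE 0.45, adjusted p = 1.1e-20). Tmem119 measured 451, 387 and 572 in the Csf2rb2 line, against 6.10 to 111 (median 9.75) in the neuron arrays, a log2 difference of 5.31 (SE 0.31, adjusted p = 5.9e-22). These groups do not overlap. Aif1 measured 179, 206 and 223 in the Csf2rb2 line, against 3.66 to 19.4 (median 5.17) in the neuron arrays, a log2 difference of 5.12 (SE 0.17, adjusted p = 1.8e-33). Spi1 measured 29.3, 77.5 and 105 in the Csf2rb2 line, against 3.05 to 9.0 (median 4.73) in the neuron arrays, a log2 difference of 3.63 (SE 0.18, adjusted p = 9.1e-26). Spi1 had the widest spread of the 10 genes among the microglia arrays, with an SD of 0.96 on the log2 scale.

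The gene that names the line was close to the threshold. Csf2rb2 measured 16.2, 9.75 and 17.8 in the Csf2rb2 line, against 3.82 to 10.5 (median 6.82) in the neuron arrays. The groups overlap: Chrnb4 replicates 1 and 3 and Pcp2 replicate 1 lay above the lowest microglia array. The log2 difference was 1.05 (SE 0.17, adjusted p = 5.7e-07), and without Csf2rb2 replicate 1 or 3 it was 0.95 or 0.88, under the threshold of 1. Its relative Csf2rb measured 6.38, 7.36 and 10.5 in the Csf2rb2 line and was not called (log2 difference 0.32, SE 0.18, adjusted p = 0.18). The 2 genes are near copies of each other, and how far their probes tell them apart is not given in the sources used here.

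**Figure D1:**
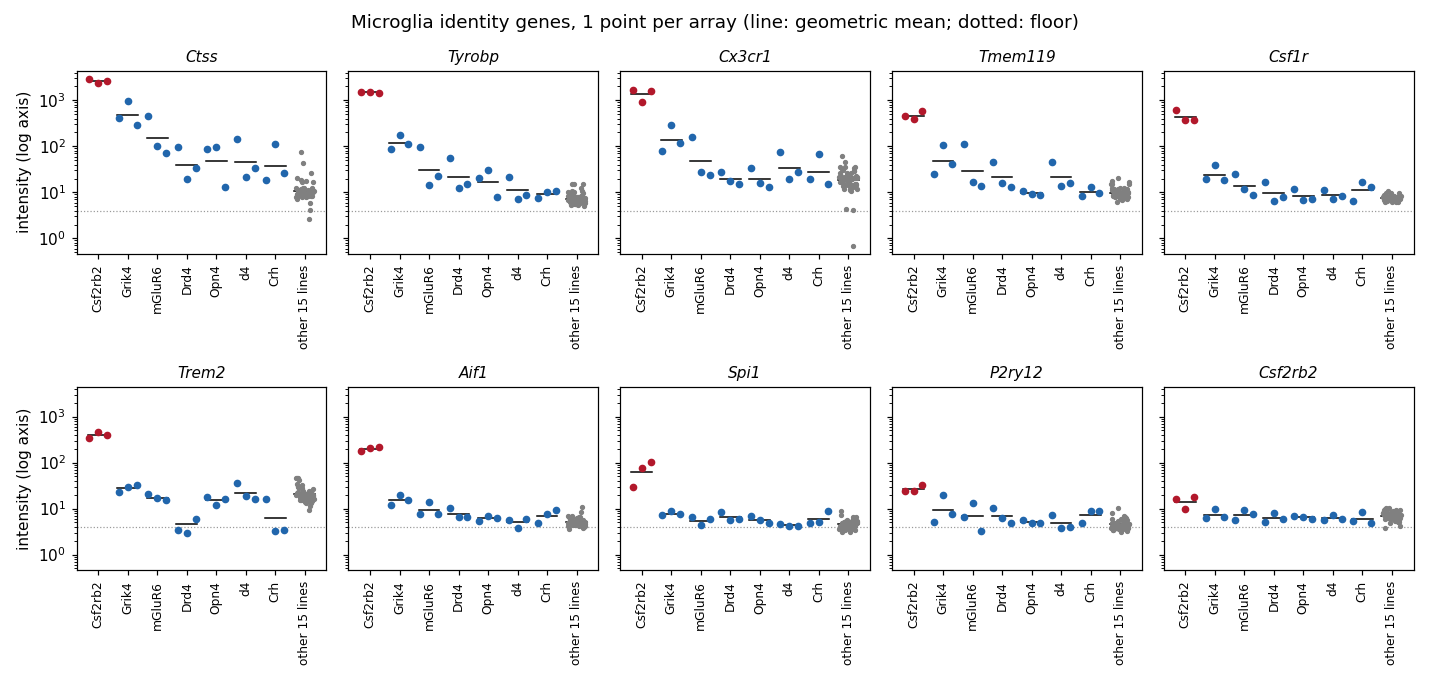
Intensity (log axis) of each of the 10 genes on every array, with the Csf2rb2 line in red, 6 neuron lines in blue and the other 15 neuron lines in grey; black bars are geometric means and the dotted line is the floor of 3.99. The 3 microglia arrays lie above all neuron arrays for 9 genes, Spi1 among them, and overlap them for Csf2rb2. The share of all genes that separate in this way was not computed. The Grik4 line is the highest neuron line for 8 genes.

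Genes around the members were read from lists of their pathways. Of 17 other microglia markers tested, Hpgds, Itgam and Ptprc passed the filter only through the Csf2rb2 line, so their direction was fixed in advance. The other 14 were all higher in the Csf2rb2 line than in the 21 neuron lines, with a median log2 difference of 5.37. Examples were Cd53 (6.89), Selplg (6.76), the lysosomal protein gene Cd68 (6.39) and Ltc4s (6.07), and further values were those of the integrin gene Itgam (2.46), the leukocyte phosphatase gene Ptprc (2.25) and the sugar transporter gene Slc2a5 (1.32). Among 12 genes tested of the Csf1r and GM-CSF receptor pathway, 4 were higher: the lipid phosphatase gene Inpp5d (2.42), the phospholipase gene Plcg2 (1.93), the ligand gene Csf1 (1.57) and the receptor subunit gene Csf2ra (1.19). The other ligand gene of Csf1r, Il34, was not called (-0.19, adjusted p = 0.61). Of 10 genes around Tyrobp and Trem2 that passed the filter through a neuron set, 9 were higher, led by the tetraspanin gene Cd9 (6.41), the phosphatase gene Ptpn6 (5.02), the apolipoprotein gene Apoe (4.05) and the exchange factor gene Vav1 (3.86). Cst7 (3.09, called) and the kinase gene Syk, downstream of Tyrobp (0.57, adjusted p = 0.0026, not called), passed through the Csf2rb2 line alone.

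Of 10 myeloid transcription factors that passed through a neuron set, 8 were higher in the Csf2rb2 line, among them Mef2c (3.44), Cebpa (2.47) and Irf8 (2.27), and Runx1 (2.22) passed through the Csf2rb2 line alone. Of 11 cathepsins and their relatives or inhibitors, 9 were higher, led by Ctsc (6.63), Ctsh (5.34), Ctsz (4.39) and Ctsd (3.83). Among 11 ligands and receptors between neurons and microglia that passed through a neuron set, 5 were higher, with Sirpa (2.78), Tgfb1 (2.24) and Tgfbr1 (2.19) in front, and Mertk (2.46) passed through the Csf2rb2 line alone. Of these 11, 2 were lower: Cx3cl1, which encodes the ligand of CX3CR1, with a log2 difference of -1.47 (SE 0.16, adjusted p = 4.3e-11), and Tgfb2 with -1.48 (SE 0.34, adjusted p = 3.9e-04), where 8.34% of all genes were called lower.

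Markers of other cells were measured beside these results. Of 11 listed genes of monocytes and perivascular macrophages, 10 were in the table and 6 passed the filter on dim genes, and those were higher in the Csf2rb2 line: Lyz2 (5.24), S100a8 (4.33), Plac8 (3.43), S100a9 (2.59), Ms4a7 (1.66) and Pf4 (1.56). S100a8, Plac8 and Pf4 passed through the Csf2rb2 line alone, so their direction was fixed in advance. The summed level of the 10 genes in the table ran from 360.4 to 1379 on the microglia arrays, against 42.5 to 116 on the neuron arrays outside Grik4. Plac8 was uneven, with 26.2, 6.48 and 801 on the 3 microglia arrays, and so was Pf4 with 44.6, 12.8 and 4.45. The part of these cells in the results of the members was not tested. None of 4 lymphocyte and mast cell genes and none of 7 pericyte genes tested was called by limma, and 0 of either had an unadjusted p under 0.05. Of 7 endothelial genes 2 were lower, and the Csf2rb2 line had a summed endothelial level of 63.8 to 75.0. Of 5 rod genes 2 were higher, Sag (2.68) and Gnat1 (2.48), both lower bounds on the size, and against the batch 3 neuron lines Gnat1 was not called (1.68, adjusted p = 0.10). The summed rod level was 192 to 376 on the microglia arrays, against 5.54 to 8148 (median 70.1) on the neuron arrays outside Grik4, with Pde6b and Cnga1 at or below the floor on all microglia arrays. Of 8 genes of Müller glia 1 was higher, Apoe (4.05), which is also in the list around Tyrobp and Trem2. Without Apoe the other Müller glia genes summed to 161 to 1100.1 on the microglia arrays, against 66.9 to 5154 (median 195) on the neuron arrays outside Grik4. Of 7 pigment epithelium genes 1 was higher, Ttr (1.06), which was not called against the batch 3 neuron lines (0.39, adjusted p = 0.48). The summed level was 60.2 to 86.7 on the microglia arrays, against 42.1 to 576 on the neuron arrays outside Grik4. Their part in the members' results was not tested either.

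Among the neuron lines, the Grik4 ganglion cell line had the highest mean level of the genes of microglia. Ordered by the mean log2 level of the 10 genes, the Csf2rb2 line had 8.08 (SD 0.16, n = 3), the Grik4 line 5.09 (SD 0.59), the mGluR6 line 4.19 (SD 0.67), the d4 line 3.56 (SD 0.57), the Drd4 line 3.50 (SD 0.52), the Opn4 line 3.44 (SD 0.38) and the Crh line 3.36 (SD 0.37). The remaining 15 lines lay between 3.21 (b2) and 2.87 (Chrna3). The array ranges of the Csf2rb2 and Grik4 lines do not overlap, and those of every other pair of neighbours in this order do. The order of the neuron lines, that of Grik4 and mGluR6 included, is therefore not resolved line by line. On mGluR6 replicate 1 the mean was 4.94, above Grik4 replicates 1 (4.62) and 3 (4.90).

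**Figure D2:**
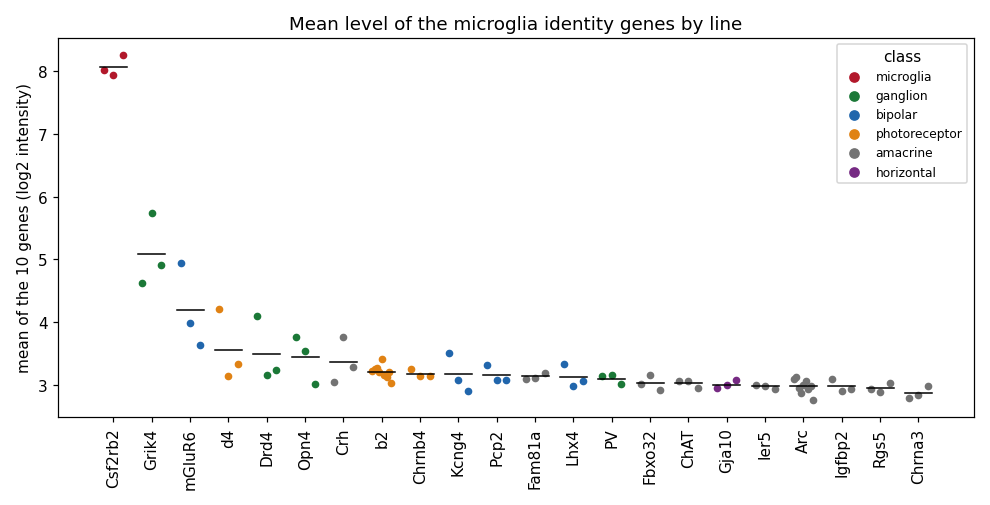
Mean log2 intensity of the 10 genes on each array (points, coloured by cell class) and for each line (black bars), with lines ordered from the highest. The Csf2rb2 line is at 8.08, the Grik4 line at 5.09 and the mGluR6 line at 4.19, and the neuron lines from b2 on lie at 3.21 or below.

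In the Grik4 line, 6 of the 10 genes were higher than in the mean of the other 20 neuron lines, where 4.28% of all genes tested were called higher. The line was singled out because earlier results of these data gave it the highest microglial level among neuron lines. The direction was thus largely set in advance, and the p-values below do not allow for that choice. The median log2 difference was 1.52 over the 10 genes and 0.02 over all genes. Ctss measured 415, 951 and 296 in the Grik4 line, against a geometric mean of 16.4 over the other neuron lines (log2 difference 4.90, SE 0.45, adjusted p = 5.8e-13). Tyrobp measured 86.5, 181 and 111 in the Grik4 line, against 9.07 (3.73, SE 0.32, adjusted p = 3.5e-14). On all 3 arrays the 2 genes were far above the mean of the other lines, and replicate 2 was the highest.

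Cx3cr1 measured 80.6, 286 and 117 in the Grik4 line, against 20.1 in the other neuron lines (2.79, SE 0.41, adjusted p = 6.5e-07). Tmem119 measured 24.6, 105 and 41.6 in the Grik4 line, against 10.9 (2.12, SE 0.31, adjusted p = 7.2e-07). Both had replicate 2 on top again. Csf1r measured 19.1, 39.6 and 18.8 in the Grik4 line, against 8.11 (1.58, SE 0.19, adjusted p = 6.1e-09). Aif1 measured 11.7, 19.4 and 15.1 in the Grik4 line, against 5.52 (1.45, SE 0.17, adjusted p = 2.4e-09).

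The other 4 members were not called in the Grik4 line. P2ry12 measured 5.11, 19.9 and 7.74, and its log2 difference was 0.88 (95% interval 0.43 to 1.34, adjusted p = 0.0038). It depended on single arrays: without Grik4 replicate 2 it was 0.33 (adjusted p = 0.62), and without replicate 1 or 3 it was 1.31 or 1.01, both called. Spi1 had a difference of 0.67 (interval 0.32 to 1.03, adjusted p = 0.0049), and Trem2 of 0.71 (interval 0.25 to 1.17, adjusted p = 0.023). These 3 passed the p-value but not the size required. Csf2rb2 had 0.10 (interval -0.23 to 0.43, adjusted p = 0.74).

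Within batch 3, against the other 9 neuron lines of that batch, 7 of the 10 genes were higher in the Grik4 line (2.67% of all genes called higher), Trem2 with 1.07 (adjusted p = 0.0013) being the additional one. The Csf2rb2 line was above the Grik4 line in 9 of the 10 genes, or 8 of 9 without Spi1 (9.12% of all genes called higher), with log2 differences of 2.43 for Ctss up to 4.19 for Csf1r among the 6 genes called in Grik4. Csf2rb2 itself differed by 0.95 (adjusted p = 0.0010) and was not called, though it was (1.27) with arrays centred on bright genes. These comparisons share the Grik4 arrays and the choice of that line from earlier results.

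**Figure D3:**
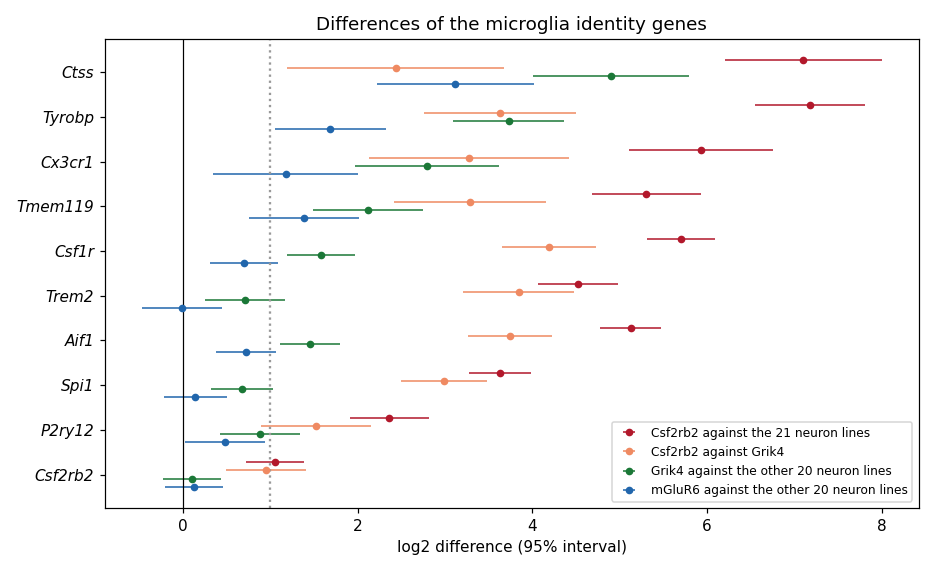
Log2 differences (points) with 95% intervals (bars) of the 10 genes for the Csf2rb2 line against the 21 neuron lines and against the Grik4 line, and for the Grik4 and mGluR6 lines each against the other 20 neuron lines; the dotted line marks the threshold of 1. Ctss has 7.10, 2.43, 4.90 and 3.12 in that order, and Csf2rb2 lies near 1 for the microglia line and near 0 for the Grik4 and mGluR6 lines.

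Genes of microglia outside the 10 moved in the Grik4 line too. Of 17 other microglia markers tested, 12 were higher than in the other 20 neuron lines, led by Cd53 (3.25), Cd68 (3.20), Selplg (3.02) and Olfml3 (2.29). Itgam (0.39, adjusted p = 0.17), Ptprc (0.19, adjusted p = 0.49), Sall1 and Hpgds were among those not called. Sall1 measured 10.4 in the Grik4 line, against a median neuron line of 7.60, and Hpgds 6.87, against 5.15. Around Tyrobp and Trem2, 5 of 12 genes were higher: Cd9 (2.83), Apoe (1.83), Lpl (1.53), Ptpn6 (1.31) and Blnk (1.16). Of the cathepsin list 4 of 11 were higher, namely Ctsc (2.06), Ctsh (1.97), Ctsz (1.87) and Ctsd (1.46). None of 11 myeloid transcription factors and none of 12 genes of the Csf1r and GM-CSF receptor pathway was called by limma at the thresholds used here. Of these, 4 of the transcription factors and 2 of the receptor pathway genes had an unadjusted p under 0.05.

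Markers of further cell types were high on the same arrays. The Grik4 line had 3 of 7 endothelial genes higher, with Cldn5 at 5.84, and 4 of 7 retinal pigment epithelium genes, with Ttr at 6.35 and Rgr at 3.91. Among these 7, Rpe65 (3.95) passed the filter through the Grik4 line alone, so its direction was fixed in advance. It had 3 of 7 pericyte genes higher, with Rgs5 at 3.04, and 4 of 8 genes of Müller glia, with Rlbp1 at 3.60, and 1 of 6 monocyte genes, Lyz2 at 1.21. The summed endothelial level was 605 to 1182 on the Grik4 arrays, against 64.4 to 718 on the other neuron arrays. The summed pigment epithelium level was 431 to 2436 on the Grik4 arrays, against 42.1 to 576 on the other neuron arrays. The summed level of pericyte genes was 226 to 371 on the Grik4 arrays, against 50.8 to 451 on the other neuron arrays, and that of Müller glia genes 989.7 to 3566, against 159 to 6896. Apoe is one of the 4 Müller glia genes called and also stands in the list around Tyrobp and Trem2. Without it, the Müller glia genes summed to 447 to 2417 on the Grik4 arrays, against 66.9 to 5154 on the other neuron arrays. No gene of the endothelial, pigment epithelium, pericyte and Müller glia lists was at or below the floor on all Grik4 arrays. The summed monocyte and perivascular macrophage level was 62.7 to 66.4 on the Grik4 arrays, against 42.5 to 116 on the other neuron arrays. Replicate 2, highest in the members with a sum of 1649, against 678 and 655 for replicates 1 and 3, was also the highest in the endothelial, pericyte and pigment epithelium sums. Of 8 ganglion cell genes, 7 were higher in the Grik4 line, led by Sncg (5.08). The part of these other cells in the members' result was not tested.

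The mGluR6 ON-bipolar line had 3 of the 10 genes higher than the other 20 neuron lines, where 3.07% of all genes were called higher. Ctss measured 458, 103 and 72.0 in the mGluR6 line, against 17.4 in the others (log2 difference 3.12, SE 0.45, adjusted p = 4.2e-07). Tyrobp measured 97.1, 14.2 and 22.1, against 9.71 (1.69, SE 0.32, adjusted p = 8.1e-05), and Tmem119 measured 111, 16.7 and 13.4, against 11.2 (1.38, SE 0.31, adjusted p = 0.0015). Replicate 1 stood far above the others in each of these and in Cx3cr1, which measured 163, 28.3 and 23.6 and was not called (1.17, adjusted p = 0.063). Without mGluR6 replicate 1, 1 gene was called, and without replicate 3, 5 were.

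On the mGluR6 arrays, endothelial, pigment epithelium and pericyte sums were below those of every Grik4 array. The summed endothelial level was 64.4 to 101 on the mGluR6 arrays, and the pigment epithelium level 48.4 to 52.2. The summed pericyte level was 54.6 to 63.9. The monocyte and perivascular macrophage sum was 50.7 to 70.0 on the mGluR6 arrays, which overlaps that of the Grik4 arrays. On mGluR6 replicate 1 the 10 genes summed to 901 and the other microglia markers to 566. The medians over all 72 neuron arrays outside Grik4 were 101 for the 10 genes and 138 for the other microglia markers.

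In 3 further neuron lines, members were called higher, but in 1 or 2 genes each. The Drd4 ganglion cell line had 2, Tyrobp (1.14) and Ctss (1.11), where 5.2% of all genes were called higher. The d4 cone line had 1, Ctss (1.34), where 4.71% were, and the Opn4 line had 1, Ctss (1.38), where 3.15% were. A single gene of 10 is close to these backgrounds. Each of these calls rested on single arrays: the counts were 0 without replicate 1 in each of the 3 lines, and 0 without Opn4 replicate 2. Ctss measured 96.9, 19.8 and 33.8 in the Drd4 line, 143, 21.4 and 33.2 in the d4 line, and 86.2, 94.4 and 13.4 in the Opn4 line. In the Crh amacrine line, with no member called higher, replicate 2 alone had Ctss at 114, against 18.4 and 26.4 on its other arrays.

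The other 16 neuron lines, Crh among them, had no member called higher. All genes called higher made up 6.89% in b2, 6.06% in Crh, 4.66% in Chrnb4, 3.44% in Chrna3, 3.01% in Gja10, 2.56% in Pcp2, 2.46% in Lhx4 and 1.7% in PV. They made up 1.52% in Igfbp2, 1.42% in Kcng4, 1.34% in ChAT, 1.32% in Ier5, 1.21% in Arc, 1.11% in Fbxo32, 1.05% in Rgs5 and 0.947% in Fam81a. Single arrays of those lines stood out, such as Kcng4 replicate 1 with Ctss at 74.5, against 18.8 and 11.9 on its other arrays. Over all 75 neuron arrays, 51 had no member at least 1 log2 unit above its neuron median, 24 had at least 1, 13 at least 2 and 4 at least 6. Those 4 were the 3 Grik4 arrays, with 6, 7 and 6 genes, and Drd4 replicate 1 with 6. Drd4 replicate 1 also had the highest endothelial (718) and pigment epithelium (576) sums outside Grik4, and the part of those cells in its members' levels was not tested.

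Members were called lower than in the other 20 neuron lines 5 times in 4 lines. Ctss was lower in Arc (-1.09, adjusted p = 0.0040, 0.649% of all genes called lower) and in Chrna3 (-2.16, adjusted p = 2.8e-04, 5.3%). The reference mean for Ctss includes the high Grik4 (489) and mGluR6 (151) lines. Arc, with 9 arrays, was at 9.35, against a median neuron line of 11.3. Rgs5 (8.70) and Fam81a (8.83), with 3 arrays each, were lower than Arc and not called, so Arc is not particular in this. Cx3cr1 was lower in Chrna3, where it measured 0.699, 4.04 and 13, against a geometric mean of 23.5 in the other neuron lines. With 1 of these arrays below the floor the difference of -1.98 is a lower bound on its size. Trem2 was lower in Crh (-1.53, adjusted p = 4.8e-07, 11.3%) and in Drd4 (-2.03, adjusted p = 6.3e-10, 8.06%). The lines Arc and b2 were each sorted 3 times, and among the 60 differences of members between sets of the same line none was called. Of all genes, 0.0464%, 0.55% and 0.0596% were called in the 3 pairs of Arc sets, and 2.76%, 1.6% and 2.7% in those of b2 sets. For Arc 0 and for b2 4 of 30 had an unadjusted p under 0.05, and the differences ran from -0.65 to 0.69.

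Trem2 and Csf2rb2 ordered the neuron lines differently from the rest. The highest neuron lines were Chrnb4 (32.4), b2 (31.5) and Grik4 (28) for Trem2, and the lowest was Drd4 (4.58). For Csf2rb2 the highest were Chrnb4 (9.74) and Pcp2 (7.58), while for the other 8 members the Grik4 line was first. Across the 21 neuron lines, the median Pearson r of a gene with the other members was 0.81 for Tyrobp, 0.80 for Csf1r, 0.77 for Aif1 and Ctss, -0.09 for Trem2 and 0.04 for Csf2rb2. Without the Grik4 line these were 0.66, 0.65, 0.55 and 0.55, -0.41 and -0.09. The points share the normalisation and, within a batch, the run, and these values are a description. On the 3 arrays of Drd4, Trem2 measured 3.49, 2.94 and 6.02, although Tyrobp measured 55.3, 12.2 and 15.4 on them.

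The genes outside the list with the profile most like the mean of the 10 were Selplg (r = 0.97), C1qb (0.96), Fcgr2b (0.96), Cd53 (0.96), C1qa (0.95) and Fcgr3 (0.95), over the 21 neuron lines. Selplg is a selectin ligand, C1qa and C1qb encode chains of complement C1q, Fcgr2b and Fcgr3 are receptors for immunoglobulin G, and Cd53 is a tetraspanin of leukocytes. Each was above the median neuron line in the Grik4 line, for example C1qa with 143 in the Grik4 line and 1198 in the Csf2rb2 line, against a median neuron line of 8.20. Grik4 is the highest neuron line in the mean of the 10. A high level there is therefore part of what selected these 6 genes, and is no separate result. The mean of the 17 other microglia markers followed the mean of the 10 with r = 0.97 over 21 neuron lines and 0.90 without Grik4. The same values were 0.76 and 0.30 for the pigment epithelium genes, 0.64 and 0.15 for the endothelial genes and 0.39 and -0.02 for the pericyte genes. Among the other microglia markers, Olfml3 measured 523 in the Gja10 horizontal cell line, against 630.5 in the Csf2rb2 line. The 10 members in Gja10 averaged 3.00 on the log2 scale, and the cause of the Olfml3 level was not tested.

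The level in a neuron line, less that of the median neuron line, was set as a share of the same excess in the Csf2rb2 line. It is a share of intensity and not of cells or RNA. In the Grik4 line the median over the 10 genes was 6.78%, and the values were 18.2% for Ctss, 9.01% for Cx3cr1, 8.29% for Tmem119, 7.53% for Tyrobp, 5.38% for Spi1, 5.04% for Aif1, 3.81% for Csf1r and 2.58% for Trem2. P2ry12 had 21%, with a narrow span between the microglia line (26.5) and the median neuron line (4.64). Replicate 2 weighed on these shares: without it the median was 4.75%, and P2ry12 had 7.52%, Tmem119 4.87% and Cx3cr1 5.84%. Without Grik4 replicate 1 the median was 10.6% and P2ry12 had 35.6%. In the mGluR6 line the median was 2.12%, with 5.29% for Ctss, 4.27% for Tmem119, 1.53% for Tyrobp, 1.36% for Csf1r and -0.19% for Trem2. Without mGluR6 replicate 1 the median was 0.88%, with 2.85% for Ctss, 1.13% for Tmem119, 0.62% for Tyrobp and 0.56% for Csf1r. In the Drd4 line the median was 1.00%, and 0.56% without its replicate 1. In 8 of the 21 neuron lines the median was below 0.

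**Figure D4:**
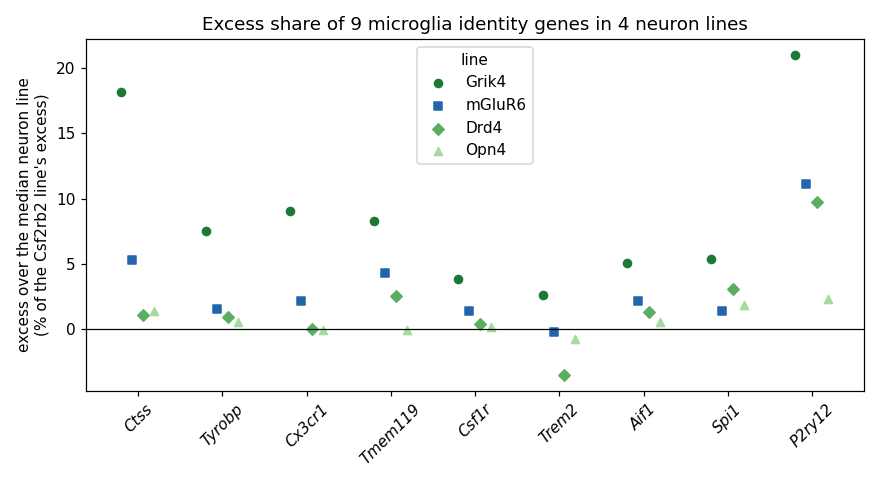
Excess of the line's intensity over the median neuron line, as a percentage of the same excess in the Csf2rb2 line, for 9 genes in 4 neuron lines. Of these 4 lines Grik4, on its 3 arrays, lies highest for every gene shown, from 2.58% for Trem2 to 21% for P2ry12. For Trem2, Chrnb4 (3.73%) and b2 (3.49%), not shown, had larger shares than Grik4. Csf2rb2 is left out because its excess in the microglia line is small.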

How the data were processed

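Total RNA of sorted cells was measured on Affymetrix Mouse Gene 1.0 ST arrays. Per the submitters' processing notes, the tools were R 2.11.1, oligo and RMA, with the mm9 build. The deposited intensity values are linear, as read from the values, and all arrays have 1 common distribution. Of 22347 probe sets, 19446 carried 1 gene symbol, 735 several and 2166 were not listed in the annotation table used; the probe set with the highest mean stood for a gene. Values below 3.99, 10.5% of all, were raised to it. In limma 3.58.1 (R 4.3.3), log2 values of all 78 arrays were fitted with 1 mean per set, without a block or batch term, and eBayes with a trend. A line was the unweighted mean of its sets. Genes were called at an adjusted p below 0.05 over the 15102 genes tested and a log2 difference of at least 1. The fit was tested on simulated data. Arc 2nd, d4 and Fbxo32 carry no batch label. In the alternative with a batch term, Arc 2nd was taken as batch 2, an assumption. The lines d4 and Fbxo32 were left out there, so its neuron means cover fewer lines.

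The members, the lists and the Grik4 line for its own comparisons were chosen with earlier results of these data known. Named genes were all members, up to 4 called genes of each list with the largest difference, and the 6 other genes with the highest r to the members' mean over the neuron lines; further list genes named beside these were chosen after their values were seen. Alternatives were no floor, other filters, centring on bright genes, the mean of all probe sets, no trend, array weights, a replicate block, a batch term and leaving out replicates. Shares without single arrays, counts without genes that passed the filter through the Csf2rb2 line alone and the Müller glia sum without Apoe were added after seeing the data. Replicate numbers did not pair the samples: over 975 pairs of the same number in different sets, deviations correlated by -0.0004 on average (-0.55 to 0.42). Sequences are from RefSeq, GRCm38.p6.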

Additional observations from a re-analysis of the deposited data

Results flagged for a closer look

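Among 50 groups of 4 to 9 line means or arrays of a member, 7 held a value far from the others by Dixon's ratio of its gap to the group's range, a check that chance passes in about 1 of 20 groups. Among the 4 ganglion cell lines, Cx3cr1 was far higher in Grik4 (139, next line 19.7, ratio 0.933). Among the 4 bipolar lines, mGluR6 stood above the others in Tyrobp (31.3, next line 8.56, ratio 0.964) and in Aif1 (9.34, next line 5.19, ratio 0.874). Among the 9 amacrine lines, Crh was highest in Csf1r (11.4, next line 8.52, ratio 0.555) and lowest in Trem2 (6.36, next line 11.7, ratio 0.501), and Chrna3 was lowest in Cx3cr1 (5.94, next line 16.5, ratio 0.621). Among the 9 arrays of the Arc line, Arc 3rd replicate 1 was highest in P2ry12 (5.84, next array 4.27, ratio 0.820), near the floor.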

How the results depend on the processing

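The counts of members higher in the Csf2rb2 line stayed at 8 to 10 against the 21 neuron lines, 8 to 10 against those of batch 3 and 8 to 10 against Grik4, and those of Grik4 at 6 to 7 against the other 20 neuron lines and 6 to 8 within batch 3, over the alternatives run, Spi1 included throughout. The count of 8 against the neuron lines came with a filter of 36.0, under which P2ry12 and Csf2rb2 were not tested. Under that filter Csf1r, Trem2, Aif1 and Spi1 passed only through the Csf2rb2 line, with highest neuron sets at 24.3, 34.8, 15.1 and 7.80. Their direction in the comparisons of the Csf2rb2 line was thus fixed in advance, and their part in this count is no check. The 7 calls in the other neuron lines were less stable: 4 with array weights, 11 with a neuron mean without the Grik4 line, an alternative chosen after seeing the data, and 3 to 8 without replicate 1, 2 or 3 of every set. The cause was not tested. With the replicate block, the counts were 10, 10, 9, 6 and 7 in the 5 comparisons, 8 in the other neuron lines and 0 between repeated sets, so the block changed 1 count, from 7 to 8. Csf2rb2 in the Grik4 line turned sign against the other neuron lines with array weights (-0.013) and without Grik4 replicate 2. Without Grik4 replicate 1, 2 or 3 it lay between -0.11 and 0.23 there, and between -0.042 and 0.29 within batch 3, and it was called in none of these. Centring arrays on bright genes shifted every difference of the Csf2rb2 line by 0.24 against the neuron lines and by 0.32 against Grik4, and those of Grik4 against the other neuron lines by -0.09. Of the single differences of members, 728 kept their direction and call, 27 lost the call, 7 gained it and 3 turned sign. Dim members such as P2ry12, with 20 of 75 neuron arrays at the floor, have differences limited by it.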
